A study of Mus musculus with 32 samples.

Results

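The mRNAs described here encode the proteins of the mitochondrial ribosome, and were taken from the deposited gene count table as every symbol that starts with Mrpl or Mrps followed by a digit. The pattern matched 83 symbols, 5 of which are pseudogenes (symbols containing -ps) and were left out. The 78 remaining genes, 49 Mrpl and 29 Mrps, are the members, out of 17757 genes in the table. All 78 were detected with 10 or more counts in each of the 32 libraries, a depth that 11046 genes of the table reached. The letter l stands for the large and s for the small ribosomal subunit, although 2 members named Mrps, Mrps18a and Mrps30, are known to sit in the large subunit. Mrps36 carries the name only: its product is known as a subunit of the α-ketoglutarate dehydrogenase complex, and it was kept because the symbol rule includes it.

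Polysome profiling was done on 4T1 cells, a tumour line from the mouse mammary gland, grown as spheroids for 5 days in lung-like medium. Control cells carrying a non-targeting shRNA were cultured with 700 µM aspartate (ASP shSCR) or with none added (NoASP shSCR), and cells carrying an shRNA against Grin2d, an NMDA receptor subunit (ASP shGRIN2D), or against Dhps, the deoxyhypusine synthase that acts on the translation factor eIF5A (ASP shDHPS), were cultured with 700 µM aspartate. From each of the 4 conditions, 4 spheroid pellets were split on a sucrose gradient into a polysomal library, from mRNA bound by more than a few ribosomes, and a sub-polysomal library from the lighter part. The question of the design is whether the share of an mRNA on polysomes depends on aspartate, on the NMDA receptor or on hypusinated eIF5A. The shRNAs were delivered by lentivirus and the lines were polyclonal after puromycin selection, so that all groups, controls included, carry an integrated vector and a selection marker.

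The deposited counts summed to between 12870563 and 25639437 per library, and the members held between 0.320% and 0.669% of them. The lowest share was in polysomal replicate 1 of ASP shSCR and the highest in polysomal replicate 2 of ASP shGRIN2D. The mean count per library ran from 221 to 4386 over the members. Among the pseudogenes left out, Mrpl48-ps held a mean of 69.0 counts per library beside 502 for Mrpl48, and Mrpl23-ps1 held 25.6 beside 1038 for Mrpl23, so that reads of these 2 pairs could have been split. The other 3 pseudogenes had means under 2 counts.

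The mitochondrial ribosome makes the membrane subunits of the respiratory chain that are encoded in mitochondrial DNA. Its rRNAs come from mitochondrial DNA, whereas all of its proteins are encoded in the nucleus, translated on cytosolic ribosomes and imported. Some of these proteins have a counterpart in the bacterial ribosome and others were gained in mitochondria, and the members are grouped here by that division and by subunit. Their mRNAs are therefore ordinary cytosolic messages in a polysome gradient, whereas the mRNAs transcribed inside mitochondria are not translated on the cytosolic ribosomes that the gradient separates.

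The targets of the shRNAs were checked first. In the sub-polysomal fraction, Dhps was at 42.9, 33.2, 43.3 and 41.3 CPM (counts scaled to a common library size, with TMM factors) in the 4 ASP shSCR libraries and at 9.98, 10.8, 10.2 and 8.96 CPM in ASP shDHPS, with no overlap. Dhps was higher in ASP shSCR by 2.01 on the log2 scale (SE 0.16, edgeR adjusted p = 1.11e-08). In the polysomal fraction it was higher by 1.64 (SE 0.23, edgeR adjusted p = 0.0167), a call that was lost without ASP shSCR replicate 2 (1.48, adjusted p = 0.0546), without ASP shDHPS replicate 1 (1.59, adjusted p = 0.0963) and without ASP shDHPS replicate 3 (1.63, adjusted p = 0.111). Grin2d was at 4.29, 3.74, 6.91 and 3.32 CPM in the sub-polysomal fraction of ASP shSCR and at 2.59, 1.87, 2.62 and 2.89 CPM in ASP shGRIN2D. The groups did not overlap, but the log2 differences of 0.88 in the sub-polysomal fraction (edgeR adjusted p = 0.232) and 1.14 in the polysomal fraction (edgeR adjusted p = 0.263) did not pass the threshold.

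The cells were checked against markers of epithelium and of 3 other cell types. All 7 epithelial markers were in the table, with a summed level of 2133 to 8514 CPM per library, and the keratin Krt8 was the most abundant in every library. In the sub-polysomal fraction the medians of this sum were 3660 in ASP shSCR, 3522 in NoASP shSCR, 2274 in ASP shGRIN2D and 2377 CPM in ASP shDHPS. Against ASP shDHPS, 4 of the 7 markers were higher in ASP shSCR (0.974% of all genes, edgeR), and 3 of 7 without replicate 1 of ASP shSCR. Against ASP shGRIN2D, 1 of the 7 was higher in ASP shSCR (0.208% of all genes, edgeR), with or without that replicate. In that comparison 4 of the 7 had an unadjusted p under 0.05 as higher (5.77% of all genes). The part of this in the comparisons of the members was not tested. The table held 2 of 5 fibroblast markers (Pdgfra and Pdpn, 6.87 to 35.6 CPM summed), 1 of 5 immune markers (Ptprc, 0 to 0.879 CPM) and 2 of 4 endothelial markers (Pecam1 and Tie1, 1.54 to 10.2 CPM summed). The endothelial sum, most of it Tie1, was 6.81 to 10.2 CPM in the sub-polysomal fraction of ASP shDHPS and 3.37 to 6.19 CPM in that of ASP shSCR, without overlap, and the polysomal medians were 4.68 and 1.70 CPM. The 2 markers went in opposite directions between ASP shSCR and ASP shDHPS. In the sub-polysomal fraction their log2 differences were -0.96 and 2.02 (1 lower and 1 higher at an unadjusted p under 0.05, edgeR). On polysomes they were -1.01 and 1.73. Neither marker passed the adjusted threshold between these groups with all pellets, and 1 of the 2 passed as lower on polysomes in ASP shSCR without its replicate 1. The part of this in the comparisons with ASP shDHPS was not tested. In bulk libraries, fewer cells of a type and less RNA per cell cannot be told apart.

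One library stood apart from the rest, that of the polysomal fraction of replicate 1 in ASP shSCR. Its position was 0.372 on a scale on which 0 is the mean sub-polysomal and 1 the mean polysomal profile of 11046 genes, and those of the other 15 polysomal libraries ran from 0.777 to 1.27. In that library, 39 of the 78 members (50%) were below their level in all other 15 polysomal libraries, compared with 14.8% of all genes, and 8 members (10.3%) were above all 15, compared with 15.1% of all genes. The group ASP shSCR enters every comparison between conditions, and the values without replicate 1 are given beside those it moved most.

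The first question was how the members were distributed between the fractions in one condition. The polysomal to sub-polysomal ratio was fitted for each gene with one term for each pellet, and is given on the log2 scale, where 0 means the same normalised level in both fractions. In ASP shSCR, 23 members had a higher level on polysomes (20.8% of all genes did, edgeR adjusted p under 0.05) and 23 a lower one (18.9% of all genes), while 32 passed in neither direction (39.7% of all genes passed in either). With library totals in place of TMM factors the split was 27 higher to 15 lower. The median over the members was 0.04, with a range of -1.73 to 1.66, and it was -0.24 without replicate 2 and 0.10 without replicate 1 of ASP shSCR. The mitoribosomal protein mRNAs thus did not lie at one place in the gradient: the standard deviation of their ratios was 0.83, beside 0.89 over the 11046 genes of like depth, of which 58.5% passed the threshold in either direction.

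The highest ratios were those of Mrps22, Mrpl19 and Mrps31. Mrps22 and Mrps31 encode mitochondria-specific proteins of the small subunit, and Mrpl19 encodes a large subunit protein with a bacterial counterpart. The pellet log2 ratios of Mrps22 in ASP shSCR were 1.60, 1.69, 1.41 and 1.90. In the other 12 pellets they ran from 1.38 to 2.42, so that the mRNA was on the polysomal side in all 16. The fitted ratio of Mrps22 in ASP shSCR was 1.66 (SE 0.19, edgeR adjusted p = 2.02e-07). Mrpl19 had pellet ratios of 1.24, 1.09, 1.30 and 2.00 in ASP shSCR and a fitted ratio of 1.41 (SE 0.18, edgeR adjusted p = 1.2e-06). Mrps31 had 1.20, 0.81, 1.17 and 1.96, with a fitted ratio of 1.30 (SE 0.23, edgeR adjusted p = 5.95e-05).

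The lowest ratios were those of Mrps24, Mrpl54 and Mrpl57. Mrps24 encodes the counterpart of bacterial protein uS3 in the small subunit, while Mrpl54 and Mrpl57 encode mitochondria-specific proteins of the large subunit. The pellet log2 ratios of Mrps24 in ASP shSCR were -0.42, -1.72, -2.88 and -1.89, and they ran from -2.73 to -1.54 in the other 12 pellets. Replicate 1 of ASP shSCR was thus the highest of the 16, and the fitted ratio of Mrps24 was -1.73 (SE 0.26, edgeR adjusted p = 6.58e-06) with it and -2.22 without it. Mrpl54 had pellet ratios of -1.86, -0.83, -2.28 and -1.68 (fitted -1.67, SE 0.23, edgeR adjusted p = 3.16e-06) and Mrpl57 had -0.98, -1.10, -2.68 and -1.72 (fitted -1.61, SE 0.22, edgeR adjusted p = 2.75e-06).

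The starts of the coding sequences of these 6 mRNAs are shown because length and base composition, described later, differed between the ends of the range. Each line gives the first 60 bases of the coding sequence, 5′ to 3′ in the sense of the mRNA, with the start codon in capitals, read from the GRCm38 genome with GENCODE annotation. The counts themselves were made by the authors on GRCm39, so that positions and sequences here are those of another build. Mrps22 lies on the minus strand of chromosome 9, Mrpl19 on the minus strand of chromosome 6, Mrps31 on the plus strand of chromosome 8, Mrps24 on the minus strand of chromosome 11, Mrpl54 on the minus strand of chromosome 10 and Mrpl57 on the plus strand of chromosome 14.
Mrps22: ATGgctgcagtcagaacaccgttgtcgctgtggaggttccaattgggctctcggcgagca
Mrpl19: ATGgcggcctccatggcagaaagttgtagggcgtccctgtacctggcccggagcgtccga
Mrps31: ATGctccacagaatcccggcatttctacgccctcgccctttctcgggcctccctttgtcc
Mrps24: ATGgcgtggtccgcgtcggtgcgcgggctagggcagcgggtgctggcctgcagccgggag
Mrpl54: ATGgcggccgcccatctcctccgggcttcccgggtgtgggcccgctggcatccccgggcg
Mrpl57: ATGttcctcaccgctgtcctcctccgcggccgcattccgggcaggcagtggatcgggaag

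The G+C share of these 60 bases was between 58.3% (Mrps22) and 65.0% (Mrpl19) in Mrps22, Mrpl19 and Mrps31, and 76.7%, 78.3% and 66.7% in Mrps24, Mrpl54 and Mrpl57. Over the whole coding sequence it was 47.2%, 51.9% and 47.2% against 60.7%, 60.5% and 60.2%, and at the last position of the codons 44.2%, 59.0% and 51.2% against 75.6%, 72.8% and 77.7%. The coding lengths were 1080, 879 and 1155 nucleotides against 504, 408 and 309. The coding sequences of the 3 mRNAs with the highest ratios were thus longer and poorer in G+C than those of the 3 with the lowest. The whole transcripts did not separate in this way, since that of Mrpl57 was 2877 nucleotides long with 42.3% G+C, longer than those of Mrps22 (1197) and Mrps31 (1515) and poorer in G+C than all 3 (45.8% for Mrps22, 47.1% for Mrpl19 and 44.2% for Mrps31).

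The order of the members was much the same in the other 3 conditions. In NoASP shSCR, 27 members were higher (23.7% of all genes) and 22 lower on polysomes (20.6%; 44.3% in either direction), with a median of 0.00 (29 higher and 15 lower with library totals). In ASP shGRIN2D, 28 were higher (23% of all genes) and 19 lower (20.4%; 43.5% in either direction), with a median of 0.13. That median was -0.05 without ASP shGRIN2D replicate 2 and 0.28 without ASP shGRIN2D replicate 1. In ASP shDHPS, 34 were higher (21.8% of all genes) and 15 lower (21.3%; 43.1% in either direction), with a median of 0.37. The rank correlation of the 78 ratios between any pair of conditions was 0.97 to 0.99. This is a description across genes, which share their length and composition in all conditions.

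In all 4 conditions, 23 members passed the threshold as higher on polysomes, of 34 that did so in any, and 14 passed as lower, of 25 that did so in any. As shares, 29.5% of members were higher in all 4 and 43.6% in any, beside 23.4% and 43.3% of the 11046 genes of like depth, and 17.9% were lower in all 4 and 32.1% in any, beside 21.1% and 35.7%. No member passed as higher in one condition and as lower in another, and 19 passed in neither direction in any condition. The 23 higher in all 4 included Mrps22, Mrpl19, Mrps31, Mrpl1, Mrpl3, Mrpl16, Mrpl45, Mrpl46, Mrpl47, Mrpl50, Mrps18b and Mrps27. The 14 lower in all 4 included Mrps24, Mrpl54, Mrpl57, Mrpl12, Mrpl33, Mrpl52, Mrps21 and Mrps36. The plot of ratios by member shows this order and the span of the 4 pellets.

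**Figure D1:**
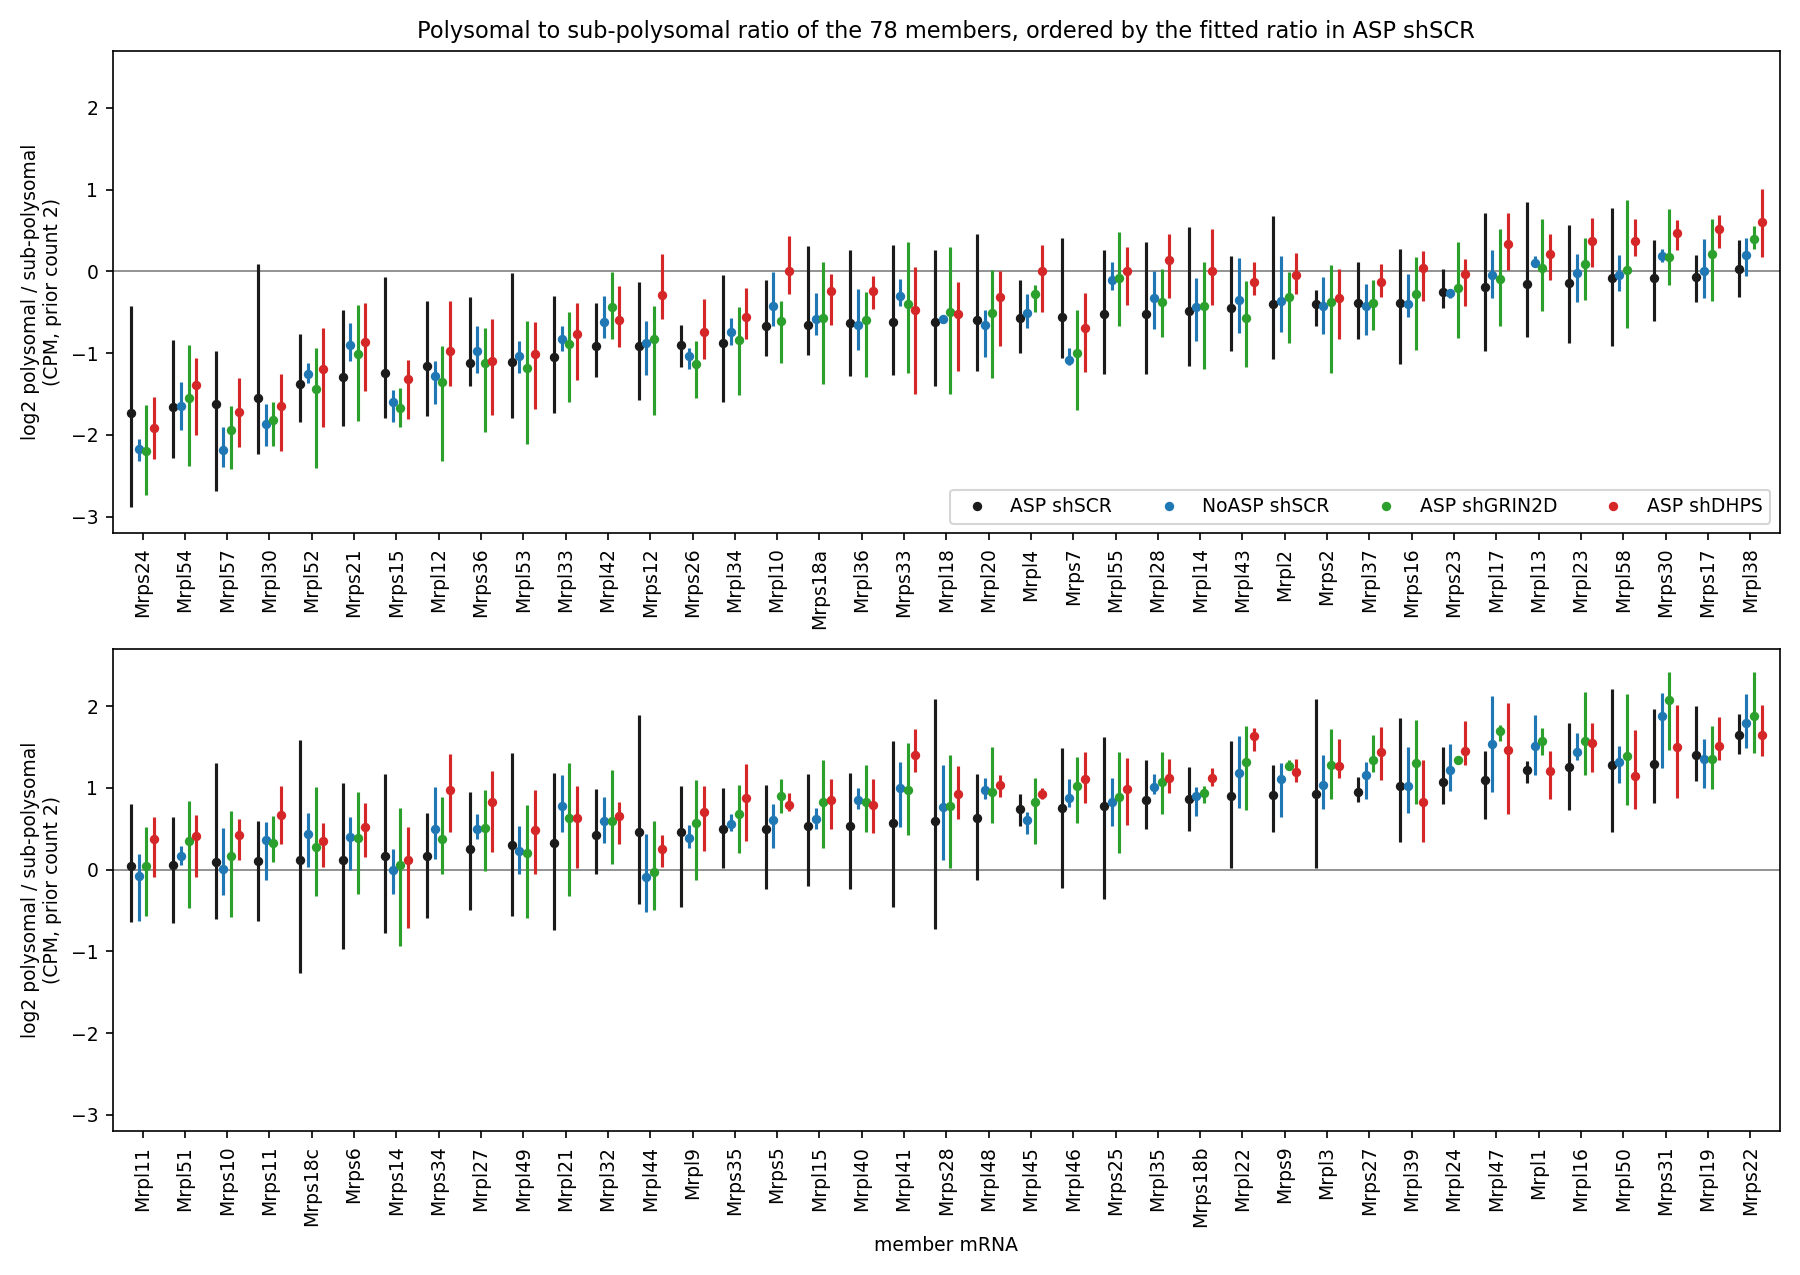
Log2 polysomal to sub-polysomal ratio (CPM, prior count 2) of each of the 78 members in the 4 conditions, ordered by the fitted ratio in ASP shSCR; points are means and lines run from the lowest to the highest of the 4 pellets. The fitted ratios that set the order rise from -1.73 for Mrps24 to 1.66 for Mrps22, and the members keep nearly the same order in the other 3 conditions.

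Grouped by place in the ribosome, the mitochondria-specific proteins of the small subunit had the highest median. In ASP shSCR, 6 of 10 of them were higher and 1 lower on polysomes, with a median of 0.64 (0.98 in ASP shDHPS), where 20.8% of all genes were higher and 18.9% lower, and 58.5% of the 11046 genes of like depth passed in either direction. Of 16 small subunit proteins with a bacterial counterpart, 2 were higher and 5 lower (median 0.01). In the large subunit, 9 of 30 proteins with a bacterial counterpart were higher and 10 lower (median -0.15), and 6 of 21 mitochondria-specific ones were higher and 6 lower (median 0.02). These counts moved with the ASP shSCR pellets: the large subunit proteins with a bacterial counterpart were 11 higher and 6 lower (median 0.02) without replicate 1, and 7 and 14 (median -0.47) without replicate 2. Without replicate 2, the mitochondria-specific proteins were 4 higher and 2 lower in the small subunit (median 0.37) and 4 and 8 in the large (median -0.14), and the small subunit proteins with a bacterial counterpart were 1 and 5 (median -0.38). Without replicate 3 or 4, the large subunit proteins with a bacterial counterpart were 8 higher and 6 lower, the small subunit ones 1 and 4, and without replicate 3 the mitochondria-specific proteins were 4 and 1 in the small subunit and 4 and 5 in the large. The difference between groups was not tested, and each group held members in both directions.

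The members with well-defined roles were spread in the same way. Mrpl10 and Mrpl12 encode the stalk on which translation factors dock, Mrpl11 the base of that stalk, and Mrpl12 is the stalk protein present in several copies. Mrpl12 was at 365, 273, 413 and 303 CPM in the sub-polysomal and at 157, 213, 121 and 124 CPM in the polysomal libraries of ASP shSCR, which did not overlap. The fitted log2 ratio of Mrpl12 was -1.16 (SE 0.23, edgeR adjusted p = 0.000239), that of Mrpl10 was -0.67 (SE 0.19, edgeR adjusted p = 0.00492) and that of Mrpl11 was 0.05 (edgeR adjusted p = 0.902), which did not pass. The call of Mrpl10 was lost with library totals in place of TMM factors (-0.49, edgeR adjusted p = 0.0797). On the other side of the range, Mrpl45, which anchors the ribosome to the inner membrane near the exit of the nascent chain, had pellet ratios of 0.56, 0.93, 0.93 and 0.53 and a fitted ratio of 0.74 (SE 0.16, edgeR adjusted p = 0.00057). Mrpl3, a protein of the large subunit core, had a fitted ratio of 0.92 (SE 0.23, edgeR adjusted p = 0.00203), although its pellet ratios ran from 0.02 in replicate 1 to 2.09 in replicate 2, and the call was lost without replicate 2 (0.50, adjusted p = 0.0611).

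Mrpl58, a peptidyl-tRNA hydrolase that became a fixed part of the large subunit and rescues stalled ribosomes, was at -0.08 in ASP shSCR (edgeR adjusted p = 0.815). Mrps12, a protein of the decoding centre, was lower on polysomes, at -0.91 (SE 0.23, edgeR adjusted p = 0.00196). The 3 relatives Mrps18a, Mrps18b and Mrps18c share a bacterial ancestor but differed in the gradient. Mrps18b had pellet ratios of 0.66, 1.07, 1.26 and 0.47, and Mrps18a had -1.02, 0.31, -0.90 and -1.003, with no overlap between the pair. The fitted ratios were 0.87 for Mrps18b (SE 0.16, edgeR adjusted p = 9e-05) and -0.66 for Mrps18a (SE 0.22, edgeR adjusted p = 0.0194), whereas Mrps18c was at 0.12 (edgeR adjusted p = 0.78). The call of Mrps18a was lost without replicate 1 (adjusted p = 0.0518), replicate 3 (0.0972) or replicate 4 (0.123) of ASP shSCR.

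Levels of different genes were compared per length, as sub-polysomal CPM per kilobase of the annotated transcript. In ASP shSCR the members spanned 2.73 to 325 CPM per kilobase, with a median of 34.1. The highest were Mrps21 (325 ± 47.2, SD, n = 4), Mrpl52 (288 ± 32.4) and Mrpl33 (266 ± 43.9), whose spans overlapped, so that their order was not resolved. These 3 mRNAs encode small proteins, and all were lower on polysomes in every condition. The lowest were Mrpl19 (2.73 ± 0.27), Mrpl1 (3.37 ± 0.69) and Mrpl47 (3.47 ± 0.56), whose annotated transcripts are long, and all 3 were higher on polysomes in every condition. On polysomes in ASP shSCR, Mrps21 was at 137 ± 44.5 and Mrpl19 at 7.35 ± 1.48 CPM per kilobase. These 2 mRNAs were chosen as extremes of the sub-polysomal levels, which favours a narrower gap on polysomes, so that no conclusion is drawn from it. The members spanned 6.95 (Mrpl48) to 160 CPM per kilobase (Mrpl13) on polysomes in ASP shSCR.

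Coding length and composition were not used to choose the members. Their coding sequences were 198 to 1329 nucleotides long, with a median of 585, compared with a median of 1380 over the 10501 coding genes of like depth. Of the 14 members under 400 nucleotides, none was higher and 9 were lower on polysomes in ASP shSCR (median -0.76), where 62.5% of all coding genes of that class were lower and 3.72% higher. Of the 12 members of 1000 nucleotides or more, 8 were higher and none was lower (median 0.92), where 37.5% of all coding genes of that class were higher and 20% lower. The medians in between were -0.17 for 26 members of 400 to 599 nucleotides, 0.25 for 18 of 600 to 799 and 0.51 for 8 of 800 to 999. The other genes showed the same order with a smaller span: their medians in the 5 classes were -0.84, -0.27, -0.07, 0.17 and 0.28. The members' median was above that of all genes in each class, by 0.08 in the shortest and 0.63 in the longest on the log2 scale, which was not tested. The longest class has no upper limit, whereas the members in it end at 1329 nucleotides, so that lengths inside this class were not matched.

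Across the 78 members the Spearman correlation of the ASP shSCR ratio with coding length was 0.54, beside 0.23 across the 10501 genes, and with the G+C share of the coding sequence it was -0.55, beside -0.34. In ASP shDHPS the correlations with G+C were -0.49 for the members and -0.01 for the genes. These values describe genes that share libraries, and length and composition differ together among the members. The plot of ratio against coding length and composition shows both relations.

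**Figure D2:**
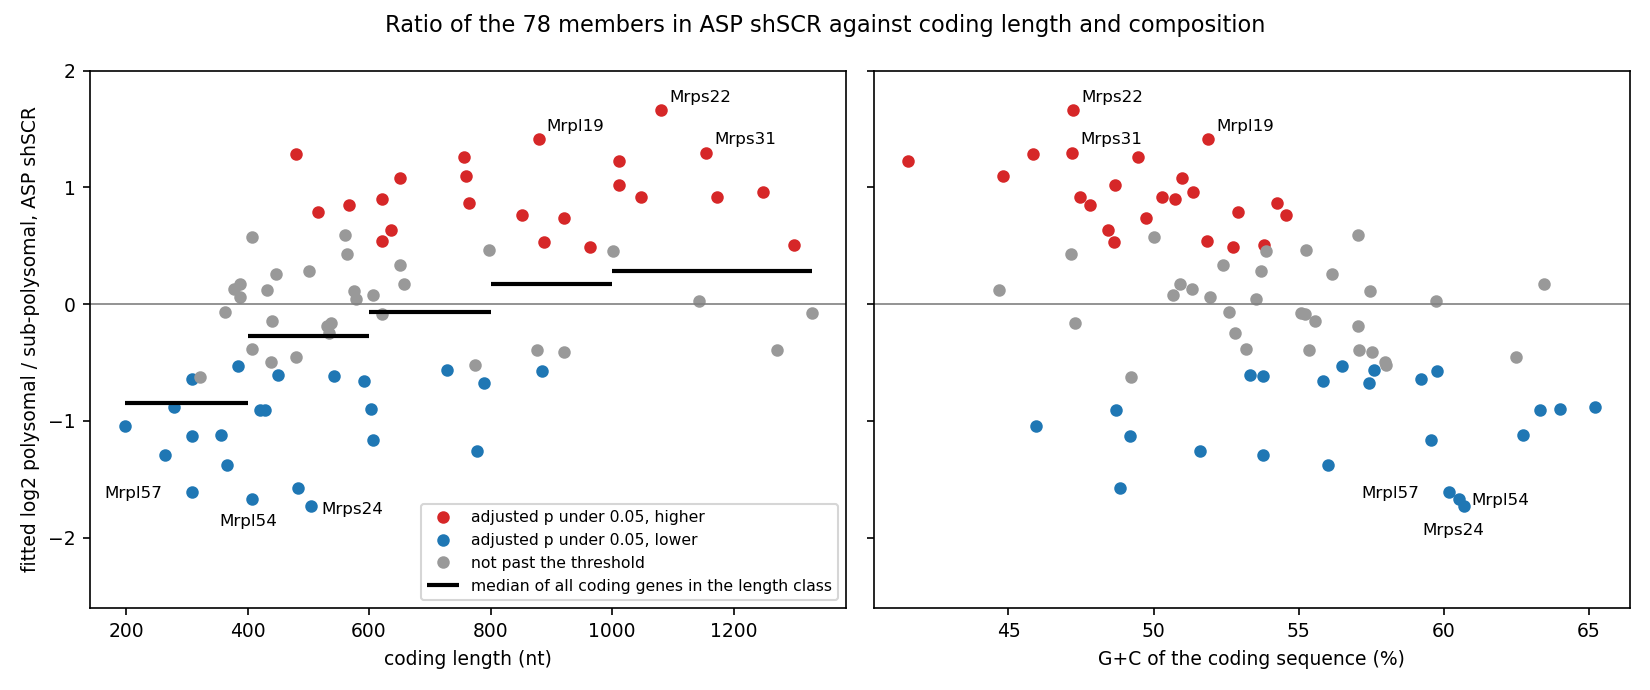
Fitted log2 polysomal to sub-polysomal ratio of the 78 members in ASP shSCR against coding length in nucleotides (left) and the G+C share of the coding sequence in percent (right); colours mark members past the edgeR threshold and black lines are the medians of all coding genes in each length class. The 9 lower members under 400 nucleotides sit at the left and the 8 higher members of 1000 nucleotides or more at the right.

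The regions around the transcription and translation starts were compared next. Nuclear genes for mitochondrial proteins are known targets of NRF1 and of ETS factors such as GABP. RefSeq promoters (GRCm38.p6, 250 bases before to 50 after the start) were matched for 69 of 78 members and for 11444 genes in all. The NRF1 motif (a palindromic run of G and C with a free base and a T in its centre), searched on both strands, was in a promoter of 18.8% of members and 10.5% of all genes, and the ETS motif CCGGAAG in 37.7% and 18.7%. Mrpl12 and Mrpl3 are shown as examples of the motifs, in capitals, upstream of a gene of known role. The first lies at chr11:120484547-120484575 and the second at chr9:105053240-105053265, both on the plus strand, 81 and 19 bases before the start.
Mrpl12 NRF1 motif: attgtctccGCGCCTGCGCgtcgcaccgc
Mrpl3 ETS motif: agaaacggaCCGGAAGtggcccggct

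The 26 members with the ETS motif had a median ratio of -0.31 in ASP shSCR (6 higher, 10 lower) and the 43 without it a median of 0.11 (14 higher, 11 lower), where 20.8% of all genes were higher and 18.9% lower. For the NRF1 motif the medians were -0.19 over the 13 members with it and -0.01 over the 56 without it. A match is a description of the letters, not of binding, and the overlap of these groups in length was not tested.

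The YY1 motif, searched on both strands and in capitals in the windows that follow, is also known as the translation initiator TISU where it holds the start codon of an mRNA with a short 5′ leader. It was in a promoter of 7.25% of members and 1.66% of all genes. The median ratio in ASP shSCR was 0.11 over the 5 members with it there and -0.07 over the 64 without it. The position of the motif at the start codon was looked at after the promoter shares were seen. In 6 of 78 members (7.69%) the annotated start codon lay inside this motif, compared with 145 of 13424 coding genes (1.08%). The 6 windows are printed because this is a sequence that a share of the members has in common at the point where translation begins. Each line gives 12 bases before the start codon and 18 from it, with the motif in capitals (GRCm38, GENCODE annotation).
Mrps27: gtgcgctccAAGATGGCGGCtcccatggtg
Mrpl35: gcaggctgcAAGATGGCGGCttccatcttc
Mrpl46: gaagacagaAAGATGGCGGCgcccgtaggg
Mrps10: cagggcaccAAGATGGCGGCgcgcgcagcg
Mrpl38: cctgggggaAAGATGGCGGCgccctggtgg
Mrps18a: gtgcgttccAAGATGGCGGCcctcagggct

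The annotated 5′ leaders of these mRNAs were 17 (Mrps27), 52 (Mrpl35), 61 (Mrpl46), 16 (Mrps10), 91 (Mrpl38) and 32 (Mrps18a) bases. Their ratios in ASP shSCR were 0.96 for Mrps27, 0.85 for Mrpl35, 0.76 for Mrpl46, 0.08 for Mrps10, 0.02 for Mrpl38 and -0.66 for Mrps18a. Mrpl46 and its neighbour Mrps11 lie head to head on chromosome 7 with models that overlap by 412 bases, and whether the authors counted by strand is not given in the sources used here, so that reads of this pair could have been shared.

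The comparisons between conditions asked whether the ratio in ASP shSCR differed from that in each other condition. No member passed the edgeR threshold in any of the 3 comparisons. Against NoASP shSCR, 0 of 78 were called (0% of all genes), 0 had an unadjusted p under 0.05 (1.93% of all genes) and DESeq2 called 0 (0% of all genes). Against ASP shGRIN2D, 0 were called (0% of all genes), 2 (2.56%) had an unadjusted p under 0.05 (3.22% of all genes) and DESeq2 called 0 (0% of all genes). Against ASP shDHPS, 0 were called (0.208% of all genes), 11 (14.1%) had an unadjusted p under 0.05, all lower in ASP shSCR, and DESeq2 called 0 (3.53% of all genes). Of all genes, 13.6% had an unadjusted p under 0.05 in this comparison, 4.93% as lower. The fitted differences had a median SE of 0.30 over the members. Differences well above that size, down to -0.84 against ASP shDHPS, did not pass the threshold. The absence of calls therefore does not show that the ratios were equal.

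The signs of the differences were unequal. Against NoASP shSCR, 21 members were positive and 57 negative, with a median difference of -0.11, while 46.5% of the 11046 genes of like depth were positive (median -0.03). Against ASP shGRIN2D, 15 were positive and 63 negative (median -0.15; genes 47.4% positive, median -0.02). Against ASP shDHPS, 11 were positive and 67 negative (median -0.31; genes 49.3% positive, median -0.01). Without ASP shSCR replicate 1 the counts became 43 positive and 35 negative (median 0.04) against NoASP shSCR, 36 and 42 (median -0.01) against ASP shGRIN2D, and 14 and 64 (median -0.20) against ASP shDHPS. Without ASP shSCR replicate 2 the medians moved the other way, to -0.31, -0.40 and -0.53. The size of all 3 shifts, and the sign of the first, thus depended on which ASP shSCR pellet was left out, while the median against ASP shDHPS was negative without any 1 pellet (-0.53 to -0.20). The 3 comparisons share the ASP shSCR pellets and are not independent of each other.

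The pellets show how wide the spread was. The median over the members of the pellet log2 ratio was -0.58, 0.68, 0.02 and -0.12 in the 4 ASP shSCR pellets, which spanned the medians of all 12 other pellets. It was 0.17, 0.20, -0.17 and 0.05 in NoASP shSCR, -0.46, 0.45, 0.44 and -0.08 in ASP shGRIN2D, and 0.11, 0.48, 0.56 and 0.36 in ASP shDHPS. As means these were -0.00 ± 0.52, 0.06 ± 0.17, 0.09 ± 0.44 and 0.38 ± 0.20 (SD, n = 4). The 4 ASP shDHPS pellets were all above 0, and the ranges of all 4 conditions overlapped.

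**Figure D3:**
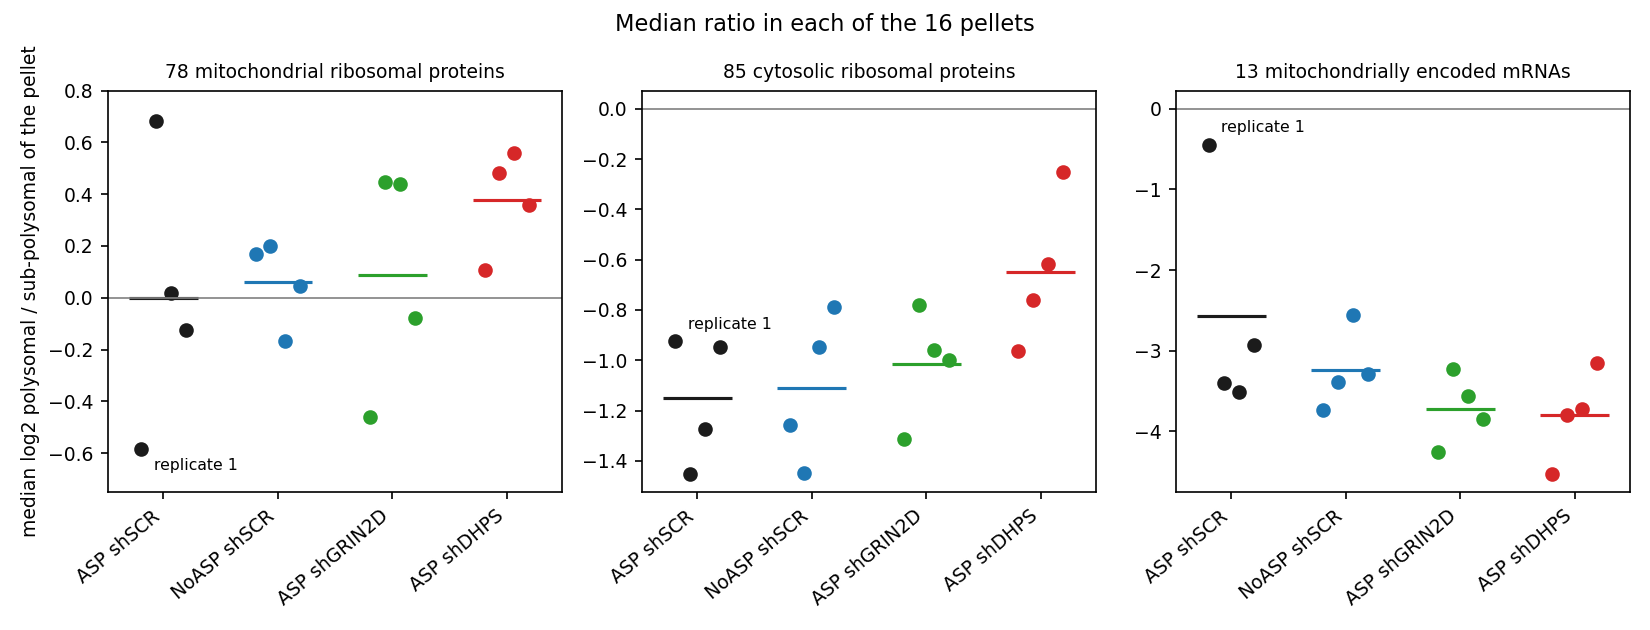
Median log2 polysomal to sub-polysomal ratio in each of the 16 pellets for the 78 mitochondrial ribosomal protein mRNAs, 85 cytosolic ribosomal protein mRNAs and 13 mitochondrially encoded mRNAs; points are pellets, horizontal lines are condition means, and the vertical scales differ. ASP shSCR replicate 1 is the lowest pellet for the first list, at -0.58, and the highest for the mitochondrially encoded mRNAs, at -0.45.

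Against ASP shDHPS, the lowest differences were those of Mrpl41 and Mrps34, both mitochondria-specific proteins. Mrpl41 had pellet ratios of -0.46, 1.58, 0.77 and 0.40 in ASP shSCR and of 1.24, 1.72, 1.47 and 1.19 in ASP shDHPS, which overlapped through replicate 2 of ASP shSCR. Its difference was -0.84 (SE 0.33, edgeR adjusted p = 0.253) with all pellets and -0.53 without ASP shSCR replicate 1. Mrps34 had -0.59, 0.69, 0.51 and 0.06 in ASP shSCR and 1.41, 1.08, 0.94 and 0.46 in ASP shDHPS, with a difference of -0.81 (SE 0.30, edgeR adjusted p = 0.219; -0.60 without replicate 1). Neither passed the threshold. Among the members with stated roles, Mrpl10 had the lowest difference in this comparison, -0.67 (SE 0.26, edgeR adjusted p = 0.249; -0.59 without replicate 1).

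Pellet ratios that did not overlap between the groups were found for 1 member against ASP shDHPS (6.86% of all genes), Mrps17, which was lower in ASP shSCR. Mrps17, named here after its values were seen, had ratios of -0.37, 0.20, 0.11 and -0.19 in ASP shSCR and 0.28, 0.69, 0.69 and 0.42 in ASP shDHPS. Against ASP shGRIN2D, 3 members did not overlap (1.92% of all genes), Mrpl1, Mrpl47 and Mrps27, all lower in ASP shSCR, and against NoASP shSCR 0 members did so (1.76% of all genes).

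Against ASP shGRIN2D, the lowest differences were those of Mrps31 and Mrpl47. Mrps31 had pellet ratios of 1.20, 0.81, 1.17 and 1.96 in ASP shSCR and 2.28, 1.46, 2.16 and 2.41 in ASP shGRIN2D, overlapping through replicate 4 of ASP shSCR. The difference was -0.81 (SE 0.33, unadjusted p = 0.0196, edgeR adjusted p = 1) and was the same size, -0.82, without ASP shSCR replicate 1. Mrpl47, which encodes the counterpart of bacterial protein uL29, had 0.61, 1.45, 1.23 and 1.08 against 1.70, 1.57, 1.76 and 1.75, with a difference of -0.61 (SE 0.29, edgeR adjusted p = 1; -0.48 without replicate 1). The highest differences, Mrpl44 at 0.49 and Mrps24 at 0.47, became -0.01 and 0.01 without replicate 1.

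Against NoASP shSCR, Mrpl57 (0.59) and Mrpl44 (0.54) had the highest differences and Mrps31 (-0.60) and Mrpl21 (-0.44) the lowest, all with an edgeR adjusted p of 1. Mrpl44 encodes a protein with a ribonuclease III fold near the exit of the large subunit. Its pellet ratios were 1.89, -0.42, -0.00 and 0.39 in ASP shSCR and -0.33, -0.52, 0.44 and 0.06 in NoASP shSCR, so that only the first pellet lay above the control range. Without it, the difference of Mrpl44 was 0.06 and that of Mrpl57 was 0.35. Mrps31 was at -0.59 and Mrpl21 at -0.11 without it. The plot of differences with and without this pellet shows the few members far below the diagonal at its right.

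**Figure D4:**
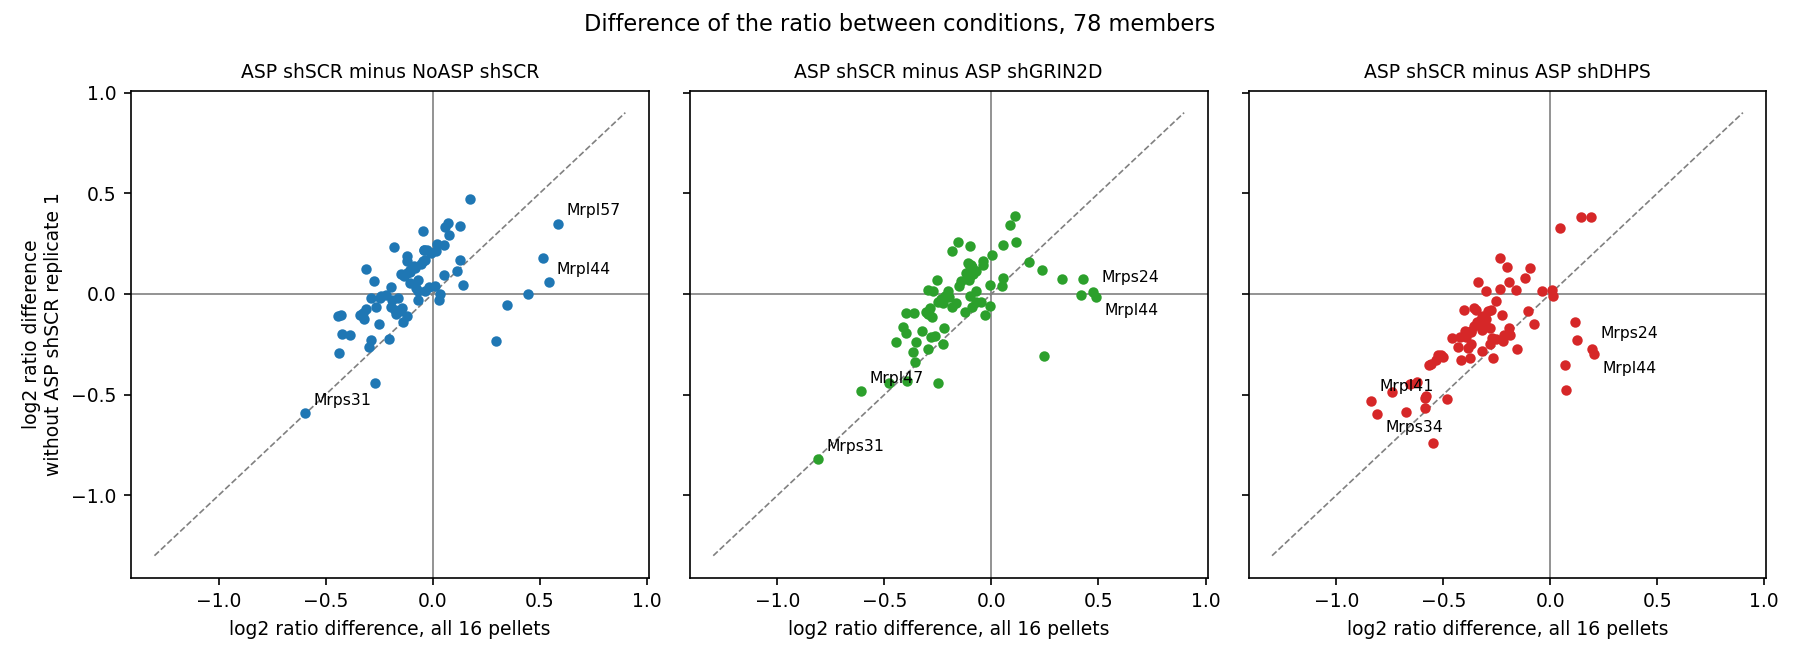
Log2 ratio in ASP shSCR minus that in each other condition for the 78 members, with all 16 pellets (horizontal axis) and without ASP shSCR replicate 1 (vertical axis); the dashed line marks equal values. Mrpl44 falls from 0.54 to 0.06 against NoASP shSCR, whereas Mrps31 stays at -0.60 and -0.59, and 57 members lie below 0 on both axes against ASP shDHPS, beside 30 against NoASP shSCR and 39 against ASP shGRIN2D.

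Levels within one fraction were compared over the 16 libraries of that fraction. In the sub-polysomal fraction, 0 members were called by edgeR against NoASP shSCR (0% of all genes), ASP shGRIN2D (0.315%) and ASP shDHPS (1.41%), with 0, 2 and 3 members at an unadjusted p under 0.05 (0%, 2.56% and 3.85%, beside 4.91%, 11% and 16% of all genes), and DESeq2 also called 0 in each (0.00563%, 1.26% and 3.67% of all genes). The median differences were 0.04, 0.04 and 0.09 on the log2 scale, and -0.01, -0.01 and 0.05 without ASP shSCR replicate 1. Over all left-out pellets they ran from -0.01 (without NoASP shSCR replicate 4) to 0.18 (without its replicate 3), from -0.05 (without ASP shGRIN2D replicate 3) to 0.10 (without its replicate 2), and from 0.04 (without ASP shDHPS replicate 4) to 0.13 (without ASP shSCR replicate 2). In the polysomal fraction, edgeR again called 0 members against NoASP shSCR (0% of all genes), ASP shGRIN2D (0.0169%) and ASP shDHPS (0.169%), with 8, 4 and 12 members at an unadjusted p under 0.05 (10.3%, 5.13% and 15.4%, beside 7.75%, 9.06% and 16.4% of all genes). The median differences were 0.01, -0.07 and -0.19, and 0.02, -0.03 and -0.14 without ASP shSCR replicate 1. Without ASP shSCR replicate 2 they were -0.10, -0.19 and -0.34, and the one against ASP shGRIN2D was 0.09 without ASP shGRIN2D replicate 2. Over all left-out pellets they ran from -0.10 to 0.05, -0.19 to 0.09 and -0.34 to -0.14. DESeq2 called 0, 0 and 1 members there (0.00563%, 0.411% and 3.12% of all genes in either direction), the last one lower in ASP shSCR. In that comparison edgeR called 0.0113% of all genes as lower.

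The 1 member called by DESeq2 was Mrpl16, which encodes a large subunit protein with a bacterial counterpart. Its polysomal levels were 21.9, 29.7, 36.9 and 37.8 CPM in ASP shSCR and 52.2, 49.3, 46.8 and 50.9 CPM in ASP shDHPS. All 4 ASP shSCR libraries were below all 4 of ASP shDHPS. The log2 difference was -0.61 with an adjusted p of 0.12 in edgeR and 0.0313 in DESeq2 (-0.53 in edgeR without ASP shSCR replicate 1). The sub-polysomal levels of Mrpl16, 13.2, 9.55, 10.5 and 20.6 CPM against 18.5, 14.8, 13.4 and 22.3 CPM, overlapped. Mrpl16 is thus a call that depended on the tool.

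Against ASP shDHPS, 6 members had sub-polysomal levels in ASP shSCR above all of the other group (4.65% of all genes were above and 9.29% did not overlap in either direction) and none below. Of these, Mrpl14 was at 132, 115, 125 and 125 CPM in ASP shSCR and at 100, 101, 86.4 and 93.3 CPM in ASP shDHPS, with a log2 difference of 0.39 (edgeR adjusted p = 0.25; 0.37 without ASP shSCR replicate 1). On polysomes, 7 members lay below all of the other group (2.7% of all genes were below and 5.25% did not overlap in either direction) and none above, among them Mrpl16, Mrpl41, Mrpl46 and Mrps18b. Against NoASP shSCR, 1 member did not overlap in the sub-polysomal fraction (Mrps27, above; 1.64% of all genes were above and 3.33% did not overlap in either direction) and 1 on polysomes (below; 0.715% and 1.37%). Against ASP shGRIN2D, 1 did not overlap in the sub-polysomal fraction (Mrps27, above; 2.83% and 5.47%) and 1 on polysomes (below; 1.52% and 2.6%). Mrps27, a mitochondria-specific protein of the small subunit with pentatricopeptide repeats, was at 19.3, 19.4, 20.3 and 24.7 CPM in ASP shSCR and at 14.98, 15.7, 13.7 and 19.3 CPM in ASP shGRIN2D (0.40, edgeR adjusted p = 0.319; 0.45 without ASP shSCR replicate 1). The separation of these groups rests on 19.308 against 19.300 CPM.

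The highest polysomal differences came from the library that stood apart. Mrpl44 was at 117, 25.4, 23.1 and 31.2 CPM in the polysomal libraries of ASP shSCR and between 22.2 and 33.2 CPM in the other 12. Only replicate 1 lay outside that range. Against NoASP shSCR the polysomal difference of Mrpl44 was 1.07 (edgeR adjusted p = 0.459) and became 0.01 without it. Mrps24 was at 81.6, 40.6, 14.0 and 23.8 CPM in ASP shSCR and between 13.2 and 40.5 CPM elsewhere, with a difference of 1.25 (edgeR adjusted p = 0.382) that became 0.49. The plot of levels by library shows these genes with Mrpl57 and with Mrpl30, Mrps7 and Mrps15, chosen once their values were known. In replicate 1 these 3 were at 154, 177 and 57.6 CPM, above the 25.3 to 58.9, 41.5 to 86.1 and 13.6 to 24.1 CPM of the other 15 polysomal libraries. Mrps15, Mrps7 and Mrpl30 were all lower on polysomes in every condition, replicate 1 included in the fit.

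**Figure D5:**
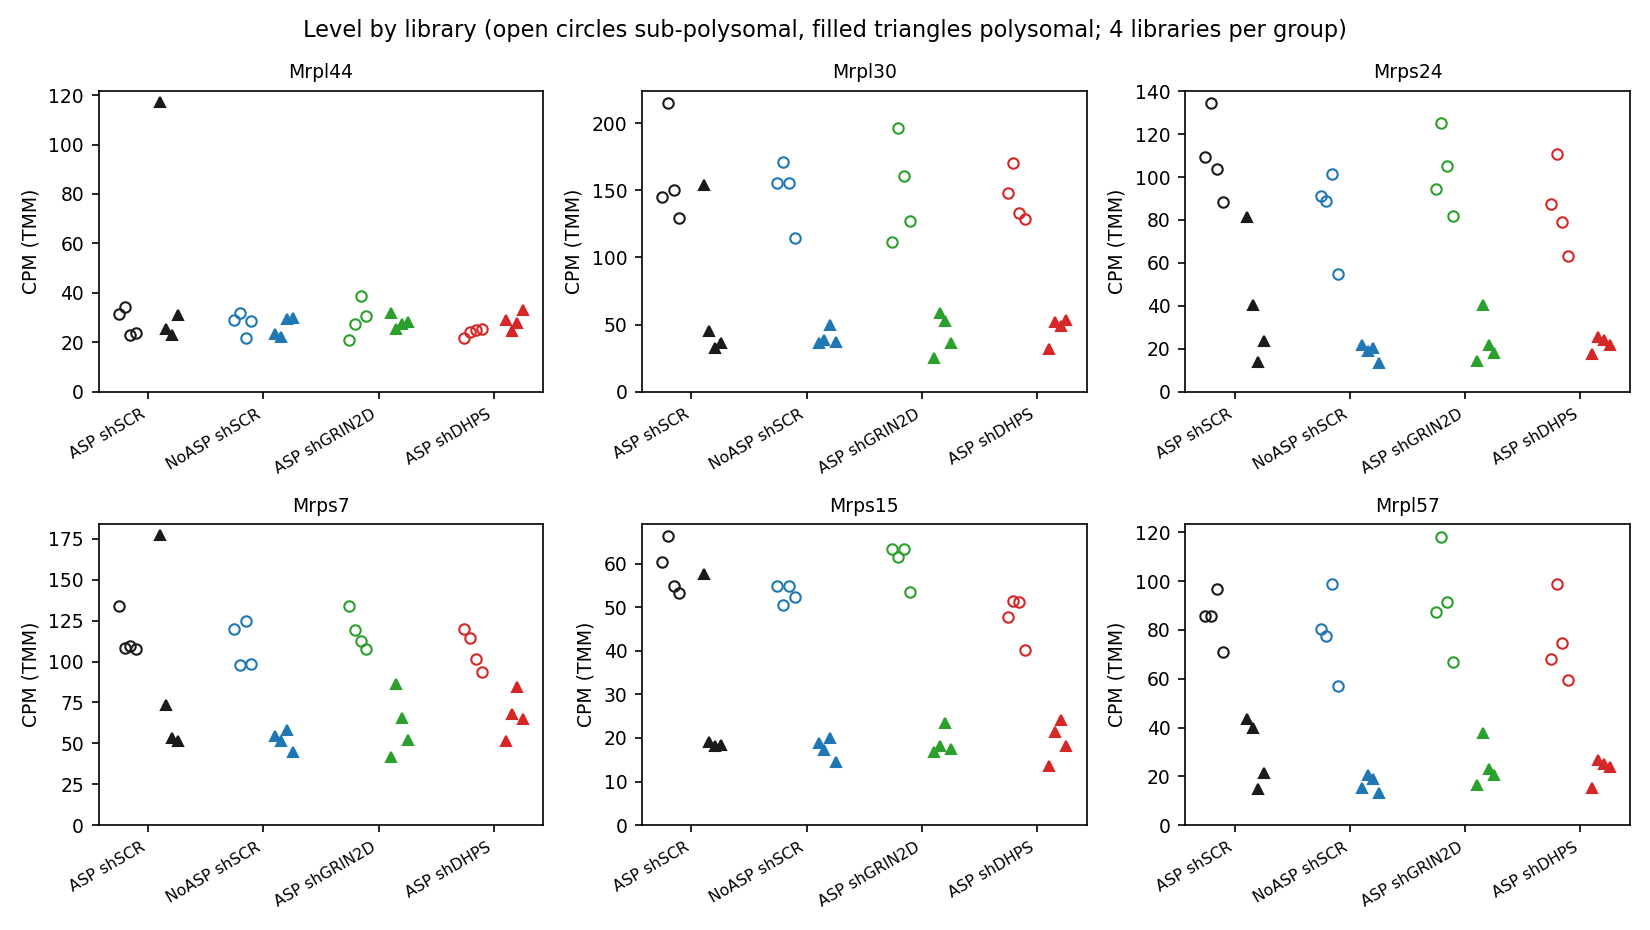
Level (CPM, TMM scaled) of 6 members in all 32 libraries; open circles are sub-polysomal and filled triangles polysomal libraries, with replicates 1 to 4 from left to right in each group. The polysomal library of ASP shSCR replicate 1 is the highest polysomal library in all 6 panels, at 117 CPM for Mrpl44 and 177 CPM for Mrps7.

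Genes that work with the mitochondrial ribosome were taken from fixed lists. Of 5 mitoribosomal proteins with other symbols, Ptcd3 was higher on polysomes in ASP shSCR (1.12, edgeR adjusted p = 1.1e-05), Chchd1 (-0.81) and Aurkaip1 (-0.62) were lower, and Dap3 and Gadd45gip1, both at 0.34, did not pass. The calls of Chchd1 and Aurkaip1 were both lost without replicate 1 (-0.62 and -0.53, adjusted p = 0.0639 and 0.0673), replicate 3 (0.0682 and 0.1) or replicate 4 (0.0532 and 0.0691) of ASP shSCR, and Gadd45gip1 passed as higher without replicate 1 (0.53, adjusted p = 0.0302). Of 13 translation factors of mitochondria, 7 were higher and none lower (median 0.60; 20.8% of all genes were higher and 18.9% lower), with Taco1, an activator of Cox1 translation, at 1.65 and the elongation factor Gfm1 at 1.54. Of 26 factors for ribosome assembly and rRNA modification, 14 were higher and 5 lower (median 0.69), beside the same shares of all genes, from -1.07 for Mpv17l2 to 1.60 for Ngrn. No gene of these 3 lists passed in a ratio difference. In the sub-polysomal fraction, 1 of them passed, against ASP shDHPS (1.41% of all genes, 0.974% as higher): Malsu1, a factor that binds the large subunit, was at 41.0, 42.8, 33.8 and 38.9 CPM in ASP shSCR and at 24.7, 28.7, 25.6 and 24.1 CPM in ASP shDHPS (0.61, SE 0.15, edgeR adjusted p = 0.038). The groups did not overlap, but the call of Malsu1 was lost without ASP shSCR replicate 1 (adjusted p = 0.0993), 2 (0.139) or 4 (0.0713), without any 1 of the 4 ASP shDHPS pellets (0.0563 to 0.127) and with library totals (0.11), over differences of 0.52 to 0.67.

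The cytosolic ribosomal protein mRNAs, the nearest family by function, lay elsewhere in the gradient. Their list of 85 was taken by symbol, with no limit on counts. It includes Rpl22l1, Rps27l and genes with few counts, such as Rps3a3 and Rpl32l (means of 52.6 and 8.94 per library). In ASP shSCR, 77 of 85 were lower on polysomes and 1 higher (18.9% and 20.8% of all genes), with a median of -1.21. Of the 78 mitochondrial ribosomal protein mRNAs, 23 were lower. In ASP shDHPS, 52 cytosolic ribosomal protein mRNAs were lower and 2 higher (median -0.63; 21.3% and 21.8% of all genes). Against ASP shDHPS the difference in ratio was negative for 78 of 85 of them, with a median of -0.54, and 0 passed in edgeR (35 had an unadjusted p under 0.05, beside 13.6% of all genes; without ASP shSCR replicate 1 the median was -0.63 and 1 passed), beside 67 of 78 and -0.31 for the mitochondrial ribosomal protein mRNAs. Whether the 2 lists differed in this was not tested.

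The 13 mRNAs made inside mitochondria were lower on polysomes in all 4 conditions, 13 of 13 in each, with medians of -2.58 in ASP shSCR, -3.42 in NoASP shSCR, -3.87 in ASP shGRIN2D and -3.96 in ASP shDHPS. Their median in ASP shSCR replicate 1 was -0.45, while the other 15 pellets lay between -4.52 and -2.56. Without that pellet the median in ASP shSCR was -3.39. The pellet in which the mitochondrial ribosomal protein mRNAs had their lowest median was thus the one in which the mitochondrially encoded mRNAs had their highest, and the part of one in the other was not tested.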

How the data were processed

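Polysomal and sub-polysomal RNA of 16 spheroid pellets was sequenced (32 libraries, stranded mRNA kit). The deposited values are expected counts per gene, which the authors estimated with Salmon and rounded to whole numbers, after removing genes without counts in enough replicates of a group. The submitters' processing notes name Trim Galore 0.6.6, FastQC 0.11.9, STAR 2.6.1, Salmon 1.4.0, DESeq2 1.34.0 and GRCm39 (mm39). Columns of the authors' own comparisons (shrunken log2 differences, p and q values, ranking and enrichment scores) were not used, and 0 sample columns were left unassigned.

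All 17757 genes were fitted with edgeR 4.0.16 (R 4.3.3, limma 3.58.1): TMM scaling, the two-sided quasi-likelihood test and Benjamini-Hochberg adjustment over all genes, with a threshold of 0.05. The ratio model held 16 pellet terms and, for each condition, the log2 ratio of polysomal to sub-polysomal level. It follows the model in the study's methods, which used DESeq2 (here 1.42.0, as an alternative). Levels were fitted over the 16 libraries of a fraction with condition only. Pellet ratios used log2 CPM with a prior count of 2. The study's methods call the 4 pellets of a condition independent, and p-values measure the spread between them. Library totals were 12870563 to 25639437.

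The members and all gene lists were chosen with earlier results of these data known, so lists are described by counts and medians beside all genes, with no test. The 31 named members are the 3 highest and 3 lowest ratios in ASP shSCR, the 2 highest and 2 lowest in each difference, the 3 highest and 3 lowest levels per kilobase (mean count of 50 or more), and 10 members of stated role; Dhps and Grin2d were also named, and other names were chosen after their values were seen. Lengths and sequences come from GENCODE and RefSeq on GRCm38, of which 97.5% of the table's genes and all 78 members had annotation. The alternatives were DESeq2, its size factors, library totals alone, a minimum of 10 counts in every library, a replicate block, no pellet term, and each pellet left out. The model was tested on simulated data.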

Additional observations from a re-analysis of the deposited data

Results flagged for a closer look

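In groups of 4 libraries or pellets, 220 sets of values were tested for 1 value far from the other 3 (Dixon's test at the 95% level). These sets were the pellet medians over the members, and the pellet ratios and CPM of members named for an ASP shSCR ratio or a difference. Members named only for their role or their level per kilobase were not included. The test marked 8, while chance alone gives about 1 in 20, or 11.

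Of these, 2 lay in the polysomal library of ASP shSCR replicate 1, which stood apart from the other polysomal libraries in its whole profile. Mrpl44 was at 117 CPM there, beside 25.4, 23.1 and 31.2 CPM, and Mrpl46 was at 13.3 CPM, beside 24.1, 23.0 and 22.7 CPM. Mrpl44 was thus high and Mrpl46 low in the same library.

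A further 3 lay in the sub-polysomal library of ASP shSCR replicate 2, all low: Mrpl47 at 8.86 CPM (the others 12.3 to 12.98), Mrpl50 at 11.9 CPM (20.1 to 21.1) and Mrps2 at 35.0 CPM (53.4 to 55.5). This is the pellet with the highest member median in the whole series, 0.68.

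The remaining 3 were in ASP shDHPS. The pellet log2 ratio of Mrpl19 in replicate 4 was 1.87, above 1.34 to 1.43 in the others. In the sub-polysomal fraction, Mrpl46 was at 17.4 CPM in replicate 3 (12.7 to 13.4 in the others), and Mrpl1 was at 9.78 CPM in replicate 1 (13.8 to 14.1 in the others).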

How the results depend on the processing

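Leaving out 1 pellet at a time, 9 of 912 values of single genes changed sign and 14 changed their side of the threshold, and 17 of 208 medians over the members changed sign. Over the other settings these were 3 and 4 of 310, and 10 of 72. None of the single genes that changed sign was past the threshold. Over the left-out pellets the ratio difference of Mrpl44 ran from -0.014 to 0.78 against ASP shGRIN2D and from -0.30 to 0.49 against ASP shDHPS, that of Mrps24 from -0.27 to 0.57 against ASP shDHPS, and the polysomal difference of Mrpl44 from -0.068 to 1.22 and from -0.12 to 1.18 against the same groups, each lowest without ASP shSCR replicate 1. The ASP shSCR ratio ran from -0.25 to 0.21 for Mrpl11, from -0.40 to 0.51 for Mrps18c and from -0.41 to 0.13 for Mrpl58, each lowest without ASP shSCR replicate 2 and highest without replicate 1. It was also 0.095 for Mrpl58 with library totals, and -0.035 for Mrpl11 with DESeq2 size factors (-0.0349 with DESeq2). The call of Mrpl10 was lost with library totals (adjusted p = 0.0797), and that of Mrps18a too (0.139). The member median ran from -0.24 to 0.10 in ASP shSCR, -0.04 to 0.11 in NoASP shSCR, -0.05 to 0.28 in ASP shGRIN2D and 0.32 to 0.47 in ASP shDHPS over the left-out pellets. The polysomal Dhps check ran from 1.48 to 1.78 over them. Counts that moved by over 1.5 times were 15 members called lower in ASP shSCR with library totals alone (23 with TMM), and 1 member called on polysomes against ASP shDHPS by DESeq2 (Mrpl16). The number of members higher on polysomes in ASP shSCR ran from 16 (without ASP shSCR replicate 2) to 27 (without replicate 1) and the number lower from 17 to 30. With library totals alone the split of higher to lower calls was 27 to 15 in ASP shSCR (23 to 23 with TMM) and 29 to 15 in NoASP shSCR (27 to 22 with TMM), and the member median in ASP shSCR was 0.21, while the median of all genes moved from -0.04 to 0.11. With DESeq2 size factors the ASP shSCR split was 20 to 28 and the member median -0.05, so that the sign of that median depended on the scaling. Against ASP shDHPS the median difference of the members was negative with every scaling, from -0.36 with DESeq2 size factors to -0.21 with library totals.

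Nothing in the labels ties pellets of the same number across conditions, and not all same-numbered pairs deviated together: their deviations had a median correlation of 0.17 over 24 pairs (14 above 0.1), beside -0.05 over 72 pairs with different numbers (18 above 0.1). The numbers were therefore not used as pairs, although same-numbered pellets were above 0.1 more often. As an alternative, a replicate block shared across conditions was added to the pellet terms. With this block, 26 members were higher and 28 lower in ASP shSCR, and 29 and 25 in NoASP shSCR. In ASP shGRIN2D they were 30 and 23, and in ASP shDHPS 37 and 16. In the differences between conditions, 0 members were called with it. With no pellet term the ASP shSCR counts were 25 and 20. Over all genes, the ratio difference against ASP shDHPS called 37 genes as reported, 231 with the replicate block, 0 with no pellet term and 626 with DESeq2. The member medians of the pellets had an SD of 0.52 in ASP shSCR, 0.44 in ASP shGRIN2D, 0.20 in ASP shDHPS and 0.17 in NoASP shSCR.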
